A study of Mus musculus with 2 samples.

Results

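The nuclear-encoded subunits of the mitochondrial respiratory chain and ATP synthase were examined in the newborn mouse thymus. Members were the protein-coding genes of the GENCODE mouse annotation on GRCm38 whose symbols begin with Ndufa, Ndufb, Ndufc, Ndufs or Ndufv and a digit, with Uqcr, with Cox and a digit from 4 to 8, or with Atp5, together with Sdha, Sdhb, Sdhc and Sdhd. The rule used symbols only and no measured value, although it was set with earlier results of these data known. It gave 84 of the 21474 protein-coding genes in the tables: 35 of complex I, 4 of complex II, 8 of complex III, 18 of complex IV, 17 of complex V, and Ndufa4 with its relative Ndufa4l2, which were kept apart because the Ndufa4 protein, once assigned to complex I, sits with complex IV. Another annotated gene that also carries the symbol Atp5o was not analysed here. The symbols Cox7a2l, Atp5s and Ndufa4l2 match the rule although their proteins are not obligate subunits of the complexes.

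The data are 2 RNA-seq libraries from thymus tissue of B6NCrl mice at postnatal day 0, from pups 6 and 7 of a Charles River C57/Bl6 female, with no treatment or altered allele in the labels. Each was made from 13 pg of total RNA longer than 200 nt, which the labels equate to 1 cell, so a library is a single-cell amount of RNA from a whole organ and not a sorted cell. Pup 6 is replicate 1 and pup 7 is replicate 2. Both list the same donor, so the spread between them contains pup, RNA handling and library together, and with 1 group of 2 libraries no test and no p-value was possible. In such bulk RNA, fewer cells of a type and less RNA per cell cannot be told apart.

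Respiratory complexes I, III and IV pass electrons from NADH to oxygen and pump protons out of the mitochondrial matrix, complex II feeds electrons in from succinate, and complex V uses the returning protons to make ATP. Complex II is built from nuclear genes alone, whereas each of the other complexes also holds subunits encoded in the mitochondrial genome. Several complex IV subunits come in a common form and a form restricted to heart, skeletal muscle, lung or testis, and the c ring of ATP synthase is made from 3 genes for the same mature protein.

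The 3 c ring genes show this most directly, and their coding ends are printed because the same peptide is spelled by different bases. Each coding sequence holds a further 183 (Atp5g1), 213 (Atp5g2) or 198 bases (Atp5g3) before these ends. Which bases assigned reads to a gene was not tested. The last 228 coding bases of each, written 5′ to 3′ from the GENCODE transcripts, were compared, with capitals at the 58 positions where the 3 are not all alike. Atp5g1 lies on chr11:96068852-96075670, Atp5g2 on chr15:102662864-102672352 and Atp5g3 on chr2:73908447-73911326, all on the minus strand of GRCm38.
Atp5g1: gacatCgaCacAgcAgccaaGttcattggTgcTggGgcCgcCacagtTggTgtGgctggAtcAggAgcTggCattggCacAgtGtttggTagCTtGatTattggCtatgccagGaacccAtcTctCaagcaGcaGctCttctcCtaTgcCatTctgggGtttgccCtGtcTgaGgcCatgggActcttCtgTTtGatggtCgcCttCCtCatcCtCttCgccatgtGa
Atp5g2: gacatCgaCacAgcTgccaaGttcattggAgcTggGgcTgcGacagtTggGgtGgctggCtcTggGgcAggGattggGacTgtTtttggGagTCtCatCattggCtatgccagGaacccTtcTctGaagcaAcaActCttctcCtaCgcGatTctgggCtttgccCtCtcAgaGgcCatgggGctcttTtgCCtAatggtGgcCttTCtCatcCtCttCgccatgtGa
Atp5g3: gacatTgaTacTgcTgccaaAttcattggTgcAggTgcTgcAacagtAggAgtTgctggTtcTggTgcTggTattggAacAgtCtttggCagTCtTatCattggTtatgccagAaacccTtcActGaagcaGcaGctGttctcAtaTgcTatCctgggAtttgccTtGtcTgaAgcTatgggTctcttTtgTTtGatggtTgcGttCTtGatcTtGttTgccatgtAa
Atp5g1 and Atp5g2 differed at 34 of the 228 bases, Atp5g1 and Atp5g3 at 46, and Atp5g2 and Atp5g3 at 49. None of these differences changed a residue: 0 of the 76 codons, the stop codon included, differed in meaning in any pair.

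The respiratory chain genes were read deeply and nearly all in both pups. The libraries held 25999043 and 31902773 estimated counts on mouse genes, of which the members took 526100 (2.02%) and 586483 (1.84%). A member was called read at 1 or more counts: 76 of 84 (90.5%) were read in both libraries, against 32.1% of all protein-coding genes, 2 in replicate 2 alone, and 6 in neither. The same 76 averaged at least 100 counts, the minimum used for ratios, and none of them had 3 or fewer counts in a library, which 35.1% of all mouse genes at that mean did. At matched level that share is small for all genes too, 3.10% between 100 and 250 TPM and 0.276% between 250 and 500. T lineage markers check the tissue label: all 12 listed (among them Cd3d, Lck, Trac and Rag1) were read in both, with a sum of 17234 and 16993 TPM, a level per transcript length in parts of 1000000 that was rescaled here over mouse genes.

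In TPM, the members together reached 37618 in replicate 1 and 35226 in replicate 2, or 36422 ± 1692 (SD, n = 2). Complex I supplied 11392 and 11684 TPM (11538 ± 206), complex V 10551 and 9785 (10168 ± 542), and complex IV 9095 and 7001 (8048 ± 1481). Complex III supplied 4139 and 4701 TPM (4420 ± 397) and complex II 1243 and 1223 (1233 ± 13.6). Complex I had the largest sum and the most genes, and its median gene stood at 317 TPM, against 541 for complex V, 571 for complex III and 649 for complex IV, medians of the mean TPM of genes at 100 or more counts. The gap between the pups was widest for complex IV, which was lower in replicate 2, and narrowest for complex II.

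The level of the median member was 417 TPM, against 35.0 TPM for the 8594 protein-coding genes at 100 or more counts. Ranked by mean TPM among protein-coding genes, 3 members were in the top 100 (Atp5b, Cox4i1 and Cox6a1), 53 in the top 500 and 70 in the top 1000, and the lowest of the 76 ranked 3286. Across these 76 genes the levels in the pups had a Spearman correlation of 0.691, and length had one of -0.357 with mean TPM, a description over genes of the same libraries. The plot of levels by gene shows most members in 1 narrow band, with the restricted complex IV forms far below it.

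**Figure D1:**
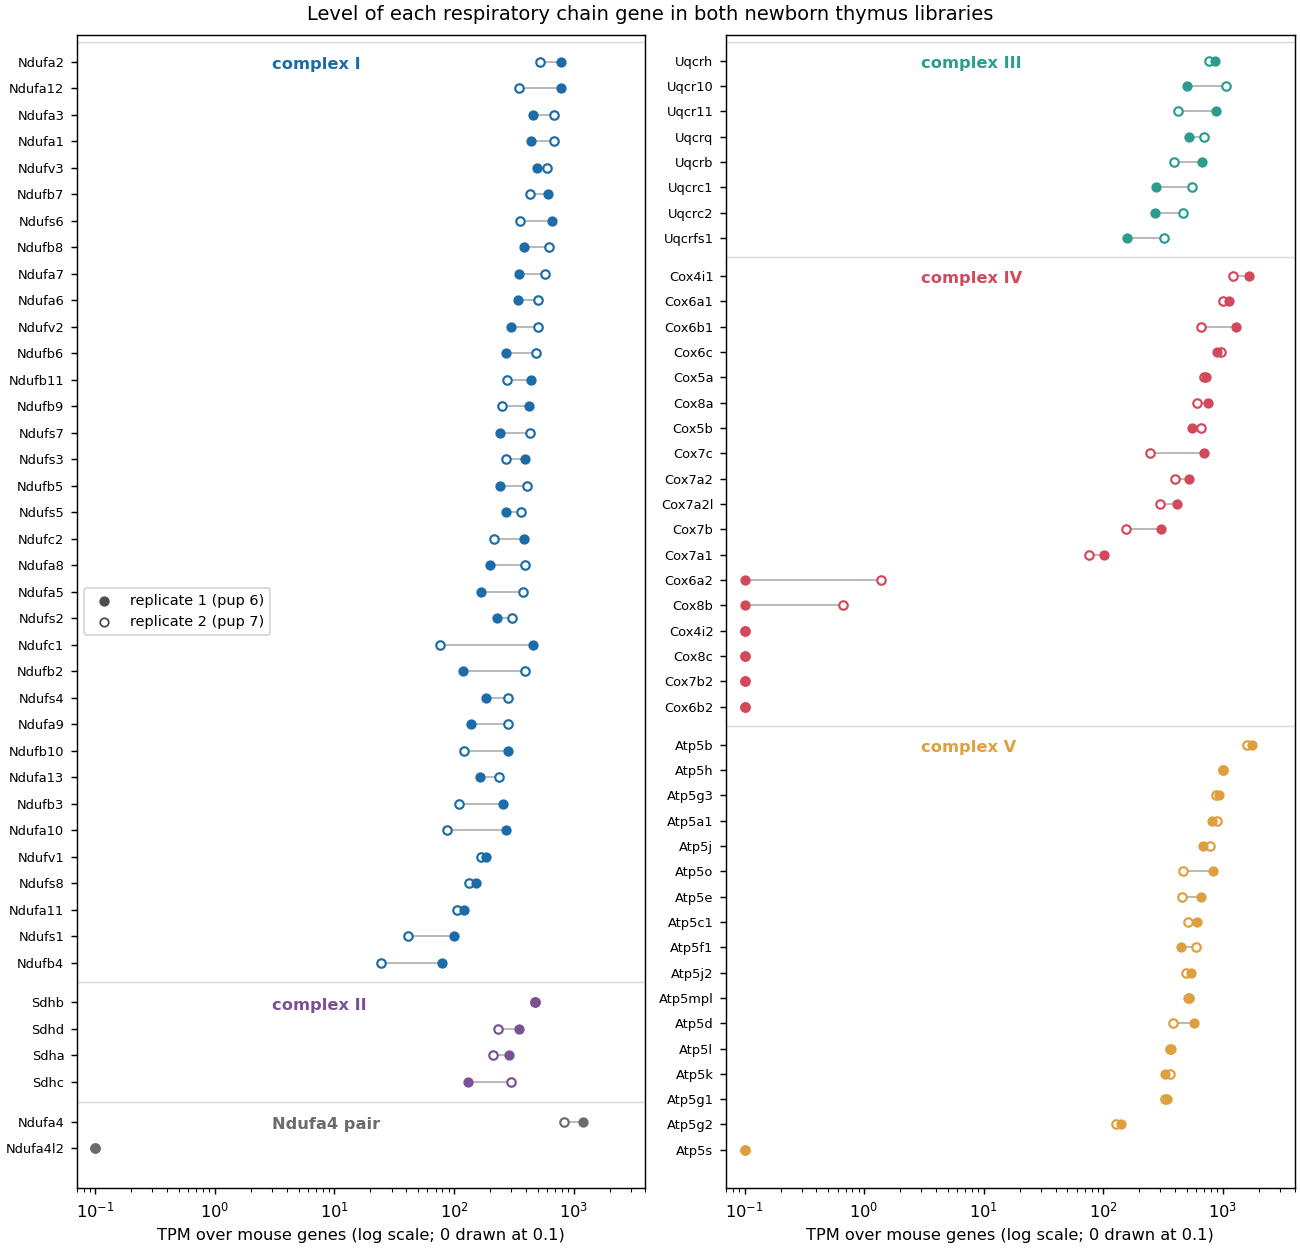
TPM over mouse genes (log scale) of all 84 respiratory chain genes, grouped by complex and ordered by mean. Filled points are replicate 1 (pup 6), open points replicate 2 (pup 7), lines join the libraries of a gene, and 0 is drawn at 0.1. All 35 complex I genes were read in both pups, whereas 6 of 18 complex IV genes were at or near 0.

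Complex I, NADH dehydrogenase, has a core that carries out the redox chemistry and a shell of accessory subunits. The 7 nuclear core subunits measured 1601 and 1865 TPM in sum, and the 28 accessory subunits 9791 and 9819. Ndufa2, an accessory subunit, had the highest mean of the complex, at 782 TPM in replicate 1 and 520 in replicate 2 (651 ± 185, SD, n = 2). Ndufa12 followed with 789 and 349 TPM (569 ± 311), and Ndufa3 with 454 and 683 (569 ± 162). These 3 did not rank the same way in the pups: Ndufa12 was the highest of them in replicate 1 and the lowest in replicate 2. Ndufa1, on the X chromosome, measured 438 and 690 TPM (564 ± 178), and Ndufv3 496 and 600 (548 ± 73.5). Among core subunits Ndufv2, an iron-sulfur subunit of the NADH-oxidising arm, had the highest mean, at 297 and 509 TPM, although Ndufs3 was above it in replicate 1 (394 and 271 TPM). The largest core protein, Ndufs1, had the lowest core level, 101 and 41.4 TPM. Ndufv1 and Ndufs8, also core subunits, were nearly level between the pups, at 186 and 170 TPM and at 152 and 134 TPM.

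The remaining accessory subunits ranged from Ndufb7 (611 and 432 TPM) down to Ndufb4. Ndufs6, which is needed late in assembly of the NADH-oxidising arm, had 666 and 357 TPM, and Ndufs4, loss of which is a known cause of mitochondrial disease, 186 and 284. Ndufa13, also known as GRIM-19, had 164 and 236 TPM. Ndufb8 (383 and 620 TPM), Ndufa7 (349 and 575), Ndufa6 (340 and 502), Ndufb6 (270 and 485), Ndufa8 (199 and 390), Ndufa5 (169 and 379) and Ndufa9 (140 and 282) were all higher in replicate 2. Ndufb11 (445 and 277 TPM), Ndufb9 (425 and 253), Ndufc2 (387 and 215), Ndufb10 (282 and 120) and Ndufb3 (256 and 111) were higher in replicate 1, so subunits of the Ndufa and Ndufb series were found on both sides.

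Ndufc1, a small membrane-arm accessory subunit on chr3:51404677-51408988 (minus strand), was the exception in the whole set. It had 2180 counts in replicate 1 and 425 in replicate 2, or 455 and 75.7 TPM, a log2 ratio of -2.57 for replicate 2 over replicate 1 on the log2(TPM + 1) scale used for every ratio here. It was the only member 4-fold or more apart, 1 of 76 (1.32%). Of all 9341 mouse genes at a mean of 100 or more counts, 50.9% were that far apart, 29.4% higher in replicate 2 and 21.5% higher in replicate 1, where the members gave 0 and 1. The next members by size were Ndufb2, an accessory subunit at 118 and 392 TPM (log2 ratio 1.73), and, in the opposite direction, Ndufa10 at 274 and 86.7 TPM (-1.65) and Ndufb4 at 79.2 and 24.5 TPM (-1.65).

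The share of genes that differed between the pups fell with level in these libraries, and the members are highly expressed genes. Among genes at 100 TPM or more, 10.2% of all mouse genes and 1 of 73 members (1.37%) were 4-fold apart. At 2-fold, 67.7% of all genes and 15 of 76 members (19.7%) were apart, and among genes at 100 TPM or more 33.5% of all genes and 13 of 73 members (17.8%). Between 500 and 1000 TPM the shares at 2-fold were 11.1% of 27 members and 10.1% of 178 genes, so at that level the members' share was close to that of all genes. The plot of ratio against level shows both features.

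**Figure D2:**
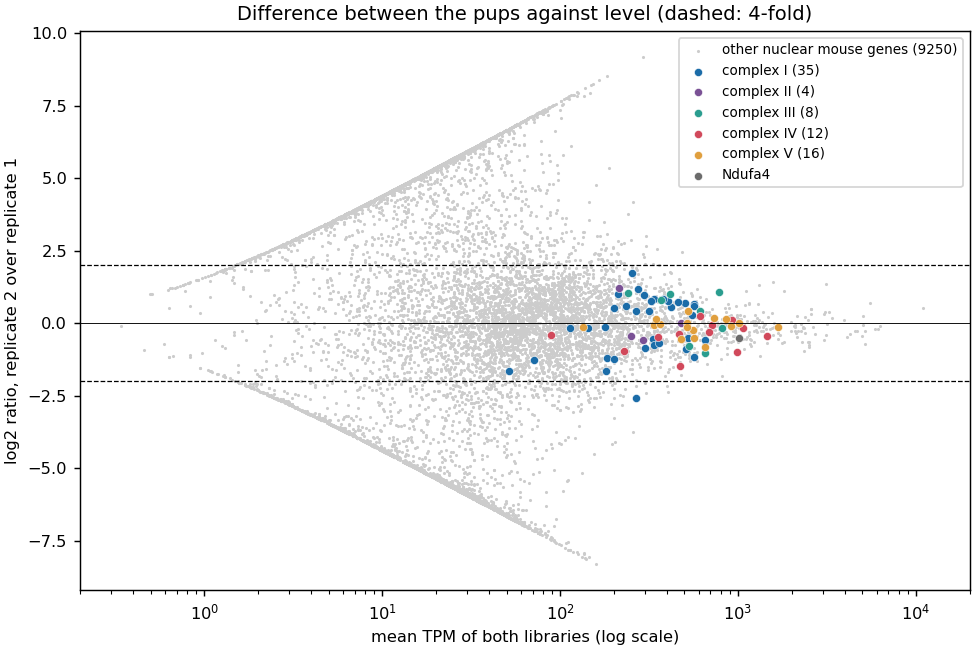
The log2 ratio of TPM + 1, replicate 2 over replicate 1, against mean TPM (log scale) for nuclear mouse genes at a mean of 100 or more counts. Coloured points are members by complex, grey points all other genes, and dashed lines mark 4-fold. The member below the lower line is Ndufc1, and no member lies above the upper line.

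Complex II, succinate dehydrogenase, is an enzyme of the citric acid cycle as well as of the chain. Sdhb, its iron-sulfur subunit, measured 473 and 478 TPM (476 ± 3.49, SD, n = 2), and Sdha, the flavin-bearing catalytic subunit, 289 and 210 TPM (249 ± 55.3). Of the membrane anchors, Sdhd measured 351 and 234 TPM (292 ± 82.5) and Sdhc 130 and 301 (215 ± 121). Sdhb thus barely moved between pups, while Sdhc was 2.31-fold higher in replicate 2 and Sdhd 1.50-fold higher in replicate 1.

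Complex III, the cytochrome bc1 complex, was the group with the highest median ratio toward replicate 2. Both core proteins and the iron-sulfur protein were higher there: Uqcrc1 at 276 and 552 TPM, Uqcrc2 at 271 and 469, and Uqcrfs1, the Rieske protein that passes electrons on to cytochrome c1, at 158 and 322. The small subunits were divided. Uqcr10 had 503 and 1068 TPM (785 ± 399, SD, n = 2) and Uqcrq 522 and 700 (611 ± 126). Uqcr11 ran the other way at 876 and 427 TPM (652 ± 317), as did Uqcrb at 672 and 390 (531 ± 200), and Uqcrh, the hinge protein, was close in both at 861 and 773 TPM (817 ± 62.2). In all, 5 of the 8 genes were higher in replicate 2, with a median log2 ratio of 0.61 beside 0.17 over all genes. Of all 9341 mouse genes at 100 or more counts, 4953 were higher in replicate 2. Between 500 and 1000 TPM the median was -0.16 over 5 complex III genes and -0.17 over all 178 genes. Between 250 and 500 TPM it was 0.89 over 2 genes of the complex and 0.012 over all 362. At matched level the lean to replicate 2 was thus seen only below 500 TPM.

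Complex IV, cytochrome c oxidase, leaned toward replicate 1. Cox4i1, the common form of the largest nuclear-encoded subunit, was the second highest member of the whole set, with copies of other genes left out, at 1674 and 1223 TPM (1449 ± 319, SD, n = 2). Cox6a1 had 1133 and 1009 TPM (1071 ± 87.8) and Cox6b1 1304 and 656 (980 ± 458). Of the rest of the 5 highest, Cox6c had 898 and 964 TPM (931 ± 46.6) and Cox5a 726 and 695 (710 ± 21.7). Of the 12 complex IV genes at 100 or more counts, 10 were higher in replicate 1, by up to 2.82-fold for Cox7c (699 and 247 TPM). Of all 9341 mouse genes at that mean, 4388 were higher in replicate 1. Cox8a had 760 and 614 TPM, Cox7b, on the X chromosome, 304 and 154, and Cox7a2l, a protein known for joining complexes III and IV into supercomplexes, 411 and 297. Cox5b, at 559 and 661 TPM, and Cox6c were the 2 that were higher in replicate 2. The median log2 ratio was -0.40. Between 500 and 1000 TPM it was -0.062 over 5 complex IV genes and -0.17 over all 178 genes, so no lean beyond that of all genes was seen there. Between 250 and 500 TPM it was -0.47 over 3 genes of the complex and 0.012 over all 362. At 1000 TPM or more it was -0.31 over 2 genes and -0.14 over all 130. Ndufa4, the complex IV-associated protein, also had more in replicate 1, 1198 and 832 TPM (1015 ± 259), and Ndufa4l2 was at 0 counts in both.

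Complex V, ATP synthase, was the most even of the groups of members between the pups. Atp5b, the catalytic beta subunit, on chr10:128083273-128090391 (plus strand), was the highest member at 1747 and 1586 TPM (1666 ± 114, SD, n = 2). Atp5a1, the alpha subunit that alternates with it in the head in equal numbers, had 810 and 896 TPM (853 ± 61.2), so the ratio of beta to alpha RNA was 2.16 and 1.77. Atp5h of the peripheral stalk measured 1015 and 1012 TPM (1014 ± 2.07), and Atp5j of the same stalk 687 and 784 (735 ± 68.4). Atp5g3, the leading c ring gene, had 937 and 878 TPM (907 ± 41.9). The central stalk subunits, which turn within the head, were Atp5c1 (606 and 512 TPM), Atp5d (572 and 388) and Atp5e (665 and 461), all higher in replicate 1. Atp5o, which ties the peripheral stalk to the head, had the widest gap of the complex V members at 832 and 468 TPM, and Atp5f1 leaned the other way at 447 and 601. The small membrane subunits Atp5j2 (539 and 497 TPM), Atp5mpl (512 and 519), Atp5l (369 and 364) and Atp5k (330 and 364) were nearly level. Atp5s, a coupling factor and not an obligate subunit, had 0 counts in both. By part of the enzyme, the F1 head summed to 4399 and 3844 TPM, the peripheral stalk to 2981 and 2865, the c ring to 1420 and 1334, and the other membrane subunits to 1750 and 1743.

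Among the members, the size of the difference between pups was smallest in complex V at matched level. Between 500 and 1000 TPM the median absolute log2 ratio was 0.19 over 9 complex V genes and 0.36 over all 178 genes, with 0.24 over 5 complex IV genes, 0.62 over 8 of complex I and 0.78 over 5 of complex III. Between 250 and 500 TPM it was 0.10 over 4 complex V genes, 0.60 over all 362 genes and 0.77 over 16 complex I genes. No complex V member at 100 or more counts was 2-fold apart, whereas 10 of 35 complex I members were, 3 higher in replicate 2 and 7 in replicate 1. Over all genes the 2-fold share was 67.7%, and 33.5% at 100 TPM or more. The evenness of complex V holds for members only: Usmg5, an ATP synthase subunit outside the rule, had 1123 and 474 TPM (log2 ratio -1.24). The direction within complex V was slight: 11 of 16 genes were higher in replicate 1, with a median log2 ratio of -0.08, but 7 of 16 and 0.0060 with DESeq2 size factors. Complex I was split 18 against 17, with a median log2 ratio of 0.27. Between 250 and 500 TPM its median was 0.64 over 16 genes, beside 0.012 over all 362. Between 500 and 1000 TPM it was -0.11 over 8 genes, beside -0.17 over all 178. Between 100 and 250 TPM it was -0.18 over 9 genes, beside -0.0014 over all 1260. Between 50 and 100 TPM it was -1.46 over 2 genes, beside 0.071 over all 1644. These are descriptions of 2 libraries, and the genes of a complex are not replicates.

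**Figure D3:**
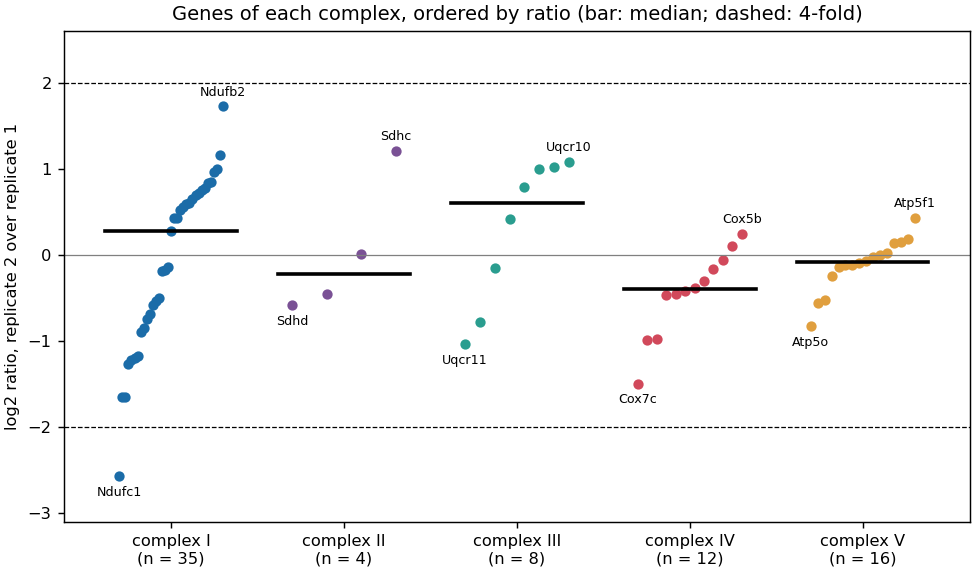
The log2 ratio of TPM + 1, replicate 2 over replicate 1, for the members of each complex at a mean of 100 or more counts, ordered by ratio, with a bar at the median, dashed lines at 4-fold and the lowest and highest gene named. Complex V spans -0.83 (Atp5o) to 0.43 (Atp5f1) and complex I -2.57 (Ndufc1) to 1.73 (Ndufb2).

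The thymus libraries used the common complex IV isoforms, with 1 exception. Cox4i2 (the lung form), Cox6b2, Cox7b2 and Cox8c (testis forms) had 0 counts in both libraries. A count of 0 allows up to 3 counts, which is 0.115 and 0.0940 counts per 1000000 mouse counts, and such limits cover counting error only. Wider gaps were common: 35.1% of all mouse genes at a mean of 100 or more counts had 3 or fewer in 1 library. A count of 0 here therefore does not establish absence. Cox6a2, the heart and muscle partner of Cox6a1, had 0 and 18 counts (0 and 1.40 TPM), or 0.138% of the pair's TPM in replicate 2. Cox8b, the heart and muscle partner of Cox8a, had 0 and 4 counts (0 and 0.662 TPM), or 0.108% of its family in replicate 2, close to the 3 counts that 0 allows.

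Cox7a1, the heart and muscle form of subunit 7a, was the exception. It had 550 and 462 counts, or 102 and 75.5 TPM (88.5 ± 18.4, SD, n = 2), beside 525 and 403 TPM for its partner Cox7a2. Its share of the pair was 16.2% and 15.8% (16.0% ± 0.306), nearly the same in both pups although both genes were higher in replicate 1. Muscle markers were present in both libraries: the 16 listed genes of heart and skeletal muscle had a total of 1758 TPM in the library of pup 6 and 526 in that of pup 7. Of these 16, 13 were read in both libraries, led by Actc1 at 513 and 95.2 TPM. Some of these were barely read in 1 library: Tnnc1 had 7 counts and Tnnt2 8 in replicate 2, and Myh7 1.21 in replicate 1. Single markers differed widely. Of 13 at 100 or more counts, 8 were 4-fold apart (61.5%), 6 higher in replicate 1 and 2 in replicate 2. The share was 50.9% of all genes and 31.5% of those between 50 and 100 TPM. Beside a log2 ratio of -0.42 for Cox7a1, Myl7 had -0.39, Myl1 -0.66, Myl4 -0.74 and Myh6 -0.72. Larger ratios were those of Tnni3 (-1.30), Ckm (-3.64), Tnni1 (-5.50), Tnnt2 (-5.59) and Tnnc1 (-6.44). Acta1 (3.19) and Des (4.79) were higher in replicate 2. Myl2 and Myl3 had 0 counts in replicate 1 and only 3 and 6 in replicate 2, and Nppa was at 0 in replicate 2. Of the 8 fat markers, Ucp1 and Cidea, which mark brown fat, were at 0 in both, and the list summed to 568 and 217 TPM, mostly Fabp4 (430 and 216). The part of either tissue in the Cox7a1 level was not tested.

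The start regions of 2 heart and muscle forms are shown beside those of their common partners, 1 restricted form that was read well (Cox7a1) and 1 that was not (Cox8b). Each line is the 250 bases before the RefSeq start on GRCm38.p6, 5′ to 3′ on the gene's strand: Cox7a1 is chr7:30183921-30184170 (plus), Cox7a2 chr9:79759854-79760103 (minus), Cox8a chr19:7217617-7217866 (minus) and Cox8b chr7:140900447-140900696 (minus). Capitals mark the first letters of an ETS core match, on the reverse strand, that runs past the end of the Cox8a line.
Cox7a1: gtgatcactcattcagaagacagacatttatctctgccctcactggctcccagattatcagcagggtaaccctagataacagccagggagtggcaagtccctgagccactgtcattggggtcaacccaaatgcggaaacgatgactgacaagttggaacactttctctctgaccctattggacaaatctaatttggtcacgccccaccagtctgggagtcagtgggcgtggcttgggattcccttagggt
Cox7a2: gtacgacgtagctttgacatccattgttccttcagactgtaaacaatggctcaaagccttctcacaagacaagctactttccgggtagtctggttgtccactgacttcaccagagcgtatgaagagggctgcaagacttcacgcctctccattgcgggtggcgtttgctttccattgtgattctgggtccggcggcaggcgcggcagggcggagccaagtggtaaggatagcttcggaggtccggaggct
Cox8a: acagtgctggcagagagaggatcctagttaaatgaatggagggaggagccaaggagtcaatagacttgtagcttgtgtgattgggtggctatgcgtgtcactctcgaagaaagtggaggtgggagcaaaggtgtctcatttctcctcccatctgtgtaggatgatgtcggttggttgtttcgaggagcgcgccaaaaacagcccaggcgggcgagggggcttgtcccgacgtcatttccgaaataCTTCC
Cox8b: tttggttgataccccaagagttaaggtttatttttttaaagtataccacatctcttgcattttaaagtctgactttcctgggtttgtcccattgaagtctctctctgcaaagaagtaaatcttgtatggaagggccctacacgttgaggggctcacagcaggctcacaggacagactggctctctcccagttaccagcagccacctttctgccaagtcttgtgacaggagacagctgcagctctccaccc
Counted over 300 bases (250 before and 50 after the start), Cox7a1 held 7 CpG dinucleotides and Cox7a2 20, and Cox8b held 2 and Cox8a 19. Other pairs with an entry did not all share this order: Cox6b1 held 17 and Cox6b2 10, but the common Cox7b held 5 and the restricted Cox7b2 10. The median was 19 over the 66 members with an entry and 8 over all 27025 genes with one. Cox7a1 and Cox8b were thus both low in CpG, the one read at 102 and 75.5 TPM and the other at 0 and 0.662 TPM.

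**Figure D4:**
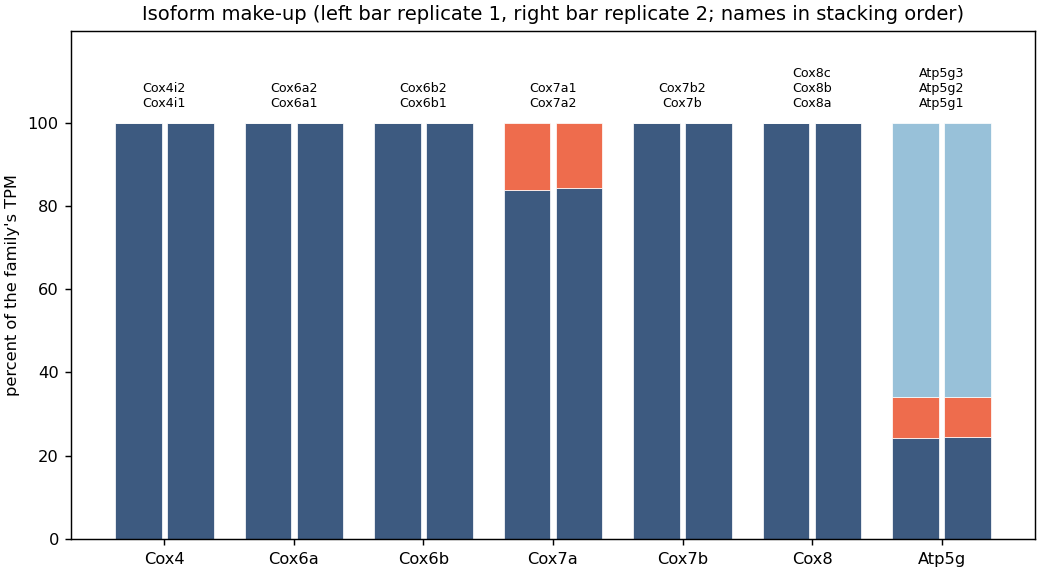
Percent of each family's TPM given by each gene, with replicate 1 as the left and replicate 2 as the right bar of a pair and gene names listed in stacking order. Cox7a1 gives 16.2% and 15.8% of its pair, the other restricted complex IV forms do not show at this scale, and Atp5g3 gives 66.0% and 65.8% of the c ring RNA.

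As deposited, the c ring genes had nearly the same proportions in both pups. Atp5g3 gave 66.0% and 65.8% of their TPM, Atp5g1 24.2% and 24.5%, and Atp5g2 9.86% and 9.65%. These shares rest on how the authors' estimate divided reads between genes and near-identical processed pseudogenes, which are intronless copies. The Atp5g2 copy Gm10175, identical over the coding sequence, held 2298 and 1622 counts where Atp5g2 itself held 1809 and 1880, and the Atp5g1 copy Gm10039 held 564 and 859. With all such copies added to their genes, Atp5g3 gave 53.9% and 55.0% of the ring, Atp5g1 24.8% and 28.0%, and Atp5g2 21.3% and 17.0%. The order held, but the shares were then less alike between the pups.

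Other members share reads in the same way. Of the 84 members, 29 had a copy in the tables at 90% or more identity over 70% or more of the coding sequence, with 54 copies in all, 50 of them processed pseudogenes and 22 at 0 counts in both libraries. For 8 members the copies held over 1% of the reads of gene and copies together. Ndufb4, the lowest of the 76 members as deposited, was the extreme case: its identical copy Ndufb4c held 79.2% and 79.9% of those reads, 3130 and 1406 counts. For Atp5l, a membrane subunit near the dimer interface of ATP synthase, the copies held 75.0% and 71.0%, nearly all in Gm10221 (9284 and 8454 counts). For Cox7c it was 14.2% and 17.7%. The levels and ranks of Ndufb4, Atp5l and Atp5g2 are therefore uncertain. With copies added, Ndufb4 stood at 606 and 234 TPM, near the median member, and Atp5l at 1779 and 1502 TPM, above Cox4i1. Ndufb4 and Ndufb4c both had more counts in replicate 1. The deposited posterior SD exceeded 1% of the count in 5 members, Ndufb4, Atp5l, Atp5g2, Atp5g1 and Cox7c, all of them among these 8.

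The transcript tables gave a further view of the same genes. Of the 54 members at 100 or more counts with 2 or more transcripts, 50 had the same leading transcript in both pups, and Cox7b, Ndufb4, Ndufb5 and Ndufv1 did not. In 7 of 76 members the leading transcript was of a type annotated as not protein-coding in at least 1 library. For Atp5f1, the b subunit of the stalk, a transcript annotated as a target of nonsense-mediated decay took 70.5% and 68.2% of the gene's transcript abundance. For Ndufa5 a processed transcript took 73.7% and 76.6%, and for Atp5j a retained-intron transcript 59.5% and 57.9%. The shares in Atp5f1, Ndufa5 and Atp5j repeated between pups within a few percentage points, as did that of a Cox5b processed transcript (50.4% and 54.0%). A retained-intron transcript of Ndufa10 moved more, from 34.2% to 42.8%. In Ndufb4 a retained-intron transcript led in replicate 1 (71.6%) and a protein-coding one in replicate 2 (51.7%). Cox7b had the reverse, protein-coding in replicate 1 (48.5%) and retained-intron in replicate 2 (51.9%). Such shares enter the TPM of these genes through the transcript lengths.

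Promoters of the members were searched on both strands for the core letters of the sites of 3 factors known for genes of this kind: GCATGCGC (NRF1), CCGGAAG (ETS factors, among them GABP) and AAGATGGC (YY1). RefSeq gave a 300-base window for 66 of the 84. The NRF1 core was found in 10 of 66 (15.2%), beside 6.83% of protein-coding genes at 100 TPM or more and 3.05% of all genes with a window. The YY1 core was found in 9 (13.6%), beside 7.17% and 3.19%, with 7 of the 9 in complex I. The ETS core was found in 16 (24.2%), beside 26.8% and 9.93%. Genes with the YY1 core did not move in 1 direction: Ndufa9 had 140 and 282 TPM and Ndufc1 455 and 75.7. A match is a description of letters and not of binding.

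The mitochondrially encoded partners gave a different balance in each complex. All 13 were read in both libraries and summed to 34728 and 37514 TPM, close to the nuclear sum. The mitochondrial subunits of complex V, mt-Atp6 (11340 and 11560 TPM) and mt-Atp8 (8179 and 8367), held 19519 and 19927 TPM, 1.85 and 2.04 times the nuclear sum of that complex. These sums add TPM per gene, so an RNA that carries both genes enters under each, and the ratio would then be lower per RNA. For complex III, whose only mitochondrial gene is mt-Cytb, the ratio was 0.693 and 0.770, and for complex I 0.545 and 0.458. For complex IV it was 0.674 in replicate 1 and 1.23 in replicate 2, since the nuclear sum was lower in replicate 2 while mt-Co1 (2835 and 4191 TPM), mt-Co2 (1982 and 2612) and mt-Co3 (1316 and 1814) were all higher. The mitochondrial genes of complex I were split, with mt-Nd1, mt-Nd2, mt-Nd3 and mt-Nd4 higher in replicate 1 and mt-Nd4l, mt-Nd5 and mt-Nd6 in replicate 2.

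RNAs for the proteins that assemble and serve the complexes were also measured. Of 47 listed assembly factors, 29 were read in both libraries, 14 in 1 and 4 in neither. Of the 34 at 100 or more counts, 5 were 4-fold or more higher in replicate 2 and 11 in replicate 1, together 47.1% beside the 50.9% of all genes. Another count, of factors with 3 or fewer counts in 1 library, gave 10 (29.4%), beside 35.1% of all genes. Both shares are near those of all genes at that mean. They lie between those of all genes from 25 to 50 TPM (59.5% and 36.9%) and from 50 to 100 TPM (31.5% and 13.4%). The median of the factors falls in the second range. Coa7, a complex IV factor, had 3292 and 2 counts, Ndufaf7, a methyltransferase of complex I assembly, 5007 and 0, and Tmem70, a complex V factor, 1 and 1640. The median level of these factors was 56.9 TPM, below every member at 100 or more counts except Ndufb4. Of the 11 carriers, 9 were at 100 or more counts and none was 4-fold apart. The ADP/ATP carrier Slc25a5 had 1057 and 1058 TPM, the ATP synthase inhibitor Atpif1 638 and 643, and Cycs, cytochrome c, 52.4 and 26.2.

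Among 12 listed regulators of mitochondrial biogenesis, 5 were read in both libraries, 6 in 1 and 1 in neither. Of the 10 at 100 or more counts, 5 were 4-fold or more higher in replicate 2 and 1 in replicate 1, together 60.0%, beside 50.9% of all genes and 59.5% of those between 25 and 50 TPM. The median level of the list was 19.2 TPM, below that range. Nrf1 RNA had 1 count in replicate 1 and 3786 in replicate 2, and Tfb2m, a mitochondrial transcription factor, 0 and 5083. Tfam, which packages and transcribes mitochondrial DNA, was read at 129 and 107 TPM.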

How the data were processed

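Thymus RNA of 2 newborn pups was measured as RNA-seq libraries of 13 pg of RNA with spike-ins. Per the file headers, the authors deposited for each gene and transcript an expected count, TPM and posterior mean versions with their SD, and for each transcript its percent of the gene. Assembly mm10 is given per the labels and annotation M4 in the deposited notes. Which aligner and counting program made them is not given in the sources used here. Estimated counts divide reads shared by near-identical genes.

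Of 43346 mouse gene IDs, 42462 were found without version in GENCODE M21 (GRCm38) and 884 were not. TPM was rescaled to 1000000 over mouse genes, leaving out spike-ins and entries with numeric IDs. Ratios are log2 with a pseudocount of 1 TPM, for genes averaging at least 100 counts. Levels are given as mean ± SD of 2 libraries. The members and lists were chosen with earlier results of these data known. Any member could be named. The 5 highest of each complex, each tissue-restricted isoform and each member 4-fold apart were given in full. Cyc1, Usmg5 and single copies were chosen after their values were seen. Copies were found with BLAST+ 2.17.0. Promoters come from RefSeq (GRCm38.p6), which held 66 of the 84 members. Sequence of members on chromosome 18 is not printed. Alternatives used edgeR 4.0.16 and DESeq2 1.42.0 scaling factors only, in R 4.3.3, with counts rounded. Python 3.11.15 and pandas 2.3.3 were used throughout, and the ratio code was tested on simulated data.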

Additional observations from a re-analysis of the deposited data

How the results depend on the processing

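Of 202 values recomputed under alternatives, 172 stayed within the spread between pups, within 0.1 on the log2 scale or within 1.5 times a count. Many of the 172 could not have moved, so their number does not measure robustness. With 2 libraries, leaving 1 out never shifts a level or share beyond the SD. Isoform shares do not change when TPM is rescaled. Leaving out Cox7a2l, Atp5s and Ndufa4l2 could not change the sums of complexes I, II, III and V. Among the 172, the median log2 ratio of complex V changed sign, from -0.08 to 0.0060, with DESeq2 size factors. The sum over members (36422 TPM) was 34072 with spike-ins kept, 42021 over protein-coding genes and 38811 with copies added, an alternative chosen after seeing the data. For complex I (11538 TPM) the values were 11284 with posterior means, 10794 with spike-ins, 12033 without mitochondrially encoded genes, 13311 over protein-coding genes and 11932 with copies. For complex II (1233 TPM) they were 1207, 1153, 1286 and 1422 under the first 4 of these. Complex III was 5099 TPM over protein-coding genes. Complex V was 9512 with spike-ins, 11731 over protein-coding genes and 11752 with copies. The Atp5g3 share was 65.7% with posterior means and 54.4% with copies. Of 76 members, 15 were 2-fold and 0 were 8-fold apart. The median log2 ratio of complex I was 0.39 with edgeR TMM factors and 0.43 with DESeq2 size factors, with all genes at 0.20 and 0.25. That of complex IV was -0.12 with no filter on low counts, where 6 genes at or near 0 enter. Either library left out gives the other's values, printed with each result. No paired analysis was possible because there is 1 group. The number of pups, 2, limits every value here.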

Other observations

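The subunit genes named here fall outside the rule by their symbols, and Cyc1 and Usmg5 were picked after their values were seen. All 3 were over 2-fold higher in replicate 1. Cyc1, cytochrome c1 of complex III, had 269 TPM in replicate 1 and 81.3 in replicate 2, a log2 ratio of -1.71, opposite in sign to Uqcrc1, Uqcrc2 and Uqcrfs1 of the same complex. Usmg5, a small membrane subunit of ATP synthase, had 1123 and 474 TPM (log2 ratio -1.24), a wider gap than any of the 16 complex V members at 100 or more counts. Ndufab1, the acyl carrier protein that is also a complex I subunit, had 681 and 325 TPM (log2 ratio -1.07) and was among the listed carriers.

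Erythroid RNA differed between the libraries beside these genes: 7 of 7 listed markers were read in both, with a sum of 3527 TPM in replicate 1 and 9133 in replicate 2. The 7 thymic epithelium markers summed to 2569 and 2668 TPM, mostly Krt8, Krt18 and Ccl25. Of these 7, 2 were 4-fold apart (28.6%, beside 50.9% of all genes), in opposite directions. Psmb11 had 87.8 and 16.3 TPM, and Foxn1 0 and 15.7. The part of these cells in the levels of the respiratory chain genes was not tested.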
